A study of Mus musculus with 127 samples.

Results

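The iron-sulfur cluster assembly genes described here are Nfs1, Lyrm4, Iscu, Glrx5, Isca1 and Isca2, 6 of the 24320 gene symbols in a table of transcript levels from single mouse marrow cells. They were chosen by name, and each had 1 row in the table: NM_010911 for Nfs1, NM_201358 for Lyrm4, NM_025526 for Iscu, NM_028419 for Glrx5, NM_026921 for Isca1 and NM_028863 for Isca2. The 127 cells came from the marrow of C57BL/6J mice and were labelled erythroblasts. Single cells were captured in a microfluidic system, photographed with an antibody to Ter119, a surface protein of maturing red cells, and sequenced after SMART-Seq amplification. There were 48 cells labelled Flvcr deleted and 48 labelled wild type, both without a named treatment, and 31 wild-type cells from EPO treatment. Flvcr is a heme exporter, and EPO is erythropoietin, the hormone that drives red cell formation. The sources used here do not give how and in which cells Flvcr was deleted, the dose of EPO, or the age and number of mice. The labels put each cell in a class, whose letter runs from A to D, and within each group the median Ter119 signal rose from A to D. The letters do not mark the same signal in every group: the median normalized Ter119 of class B was 0.452 in wild-type, 0.381 in Flvcr-deleted and 0.0988 in EPO-treated cells.

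No animal is named, so each group counts as 1 sample: SDs below describe the spread among cells, and no p-value is given. The sample codes of the groups also carry different prefixes (27 of the 31 EPO-treated cells share 1 prefix and 4 another), so that prefix and group cannot be told apart. The median number of genes detected in a cell was 2422 in wild-type, 1069 in Flvcr-deleted and 1441 in EPO-treated cells, where detected means an RPKM of at least 1. RPKM scales reads to transcript length and to the mapped reads of the cell, and log2 levels below are log2(RPKM + 1). All cells of classes B to D had at least 3 of the 9 erythroid markers in the table, and none had 3 or more granulocyte and monocyte markers. Of the 6 wild-type class A cells 4 also had at least 3 erythroid markers, but Alas2 and Slc4a1 were at 0 in all 6. Their summed erythroid marker RPKM ran from 17.9 to 379, against 23597 to 555310 in wild-type cells of the other classes. Of these 6 cells 2 had 3 or more granulocyte and monocyte markers and 3 had the 3 mast cell and basophil markers. Levels are therefore given first for classes B to D (42 wild-type, 30 Flvcr-deleted and 24 EPO-treated cells), with class A apart. Classes B to D were not uniform either. The lowest summed erythroid marker RPKM there was 367 in Flvcr-deleted and 19992 in EPO-treated cells. The first lies in the range of wild-type class A. Flvcr-deleted class B cells 7, 13, 16 and 40 had globin shares of 0.320% to 2.71%, against a class median of 79.9%. Lyrm4 was detected in each of these, out of 8 such cells in that class, and Iscu in cells 13 and 40, out of 5. They were kept in class B.

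Iron-sulfur clusters are cofactors built in mitochondria and used by respiratory enzymes, DNA enzymes and regulators of iron. The cysteine desulfurase NFS1, held stable by LYRM4, supplies sulfur to the scaffold ISCU, on which a [2Fe-2S] cluster forms. GLRX5 carries that cluster onward, and ISCA1 and ISCA2 help to convert it to the [4Fe-4S] form. In erythroblasts the pathway feeds heme synthesis, since ferrochelatase carries a cluster and the iron regulatory protein IRP1, made from Aco1, senses clusters. Loss of GLRX5 gives a sideroblastic anemia.

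Promoters are shown for the transfer gene Glrx5 and the late assembly genes Isca1 and Isca2, because these 3 had the most widely detected transcripts in wild-type cells and differed from each other between groups. The sequences are RefSeq's, on GRCm38.p6, for up to 250 bases before the annotated start and outside the annotated gene. Of the 6 members, 5 matched an entry: Isca2, Isca1, Glrx5, Lyrm4 and Nfs1. Capitals mark matches, on either strand, to the GATA motif (AGATAA or TGATAA) and to the CACC motif (CCNCNCCC), letters associated with erythroid transcription factors. Glrx5 lies on the plus strand at chr12:105032368-105032617, Isca2 on the plus strand at chr12:84773020-84773229 and Isca1 on the minus strand at chr13:59769790-59770039.
Isca2: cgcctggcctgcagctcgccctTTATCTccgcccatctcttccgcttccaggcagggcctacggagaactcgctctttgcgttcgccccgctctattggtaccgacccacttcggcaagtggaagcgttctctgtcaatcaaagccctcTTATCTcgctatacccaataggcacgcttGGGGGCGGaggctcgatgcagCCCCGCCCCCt
Isca1: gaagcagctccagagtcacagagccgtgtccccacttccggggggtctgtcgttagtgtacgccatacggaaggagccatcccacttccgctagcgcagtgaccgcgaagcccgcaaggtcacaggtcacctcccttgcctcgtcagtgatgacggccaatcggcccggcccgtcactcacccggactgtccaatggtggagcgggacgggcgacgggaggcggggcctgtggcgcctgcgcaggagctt
Glrx5: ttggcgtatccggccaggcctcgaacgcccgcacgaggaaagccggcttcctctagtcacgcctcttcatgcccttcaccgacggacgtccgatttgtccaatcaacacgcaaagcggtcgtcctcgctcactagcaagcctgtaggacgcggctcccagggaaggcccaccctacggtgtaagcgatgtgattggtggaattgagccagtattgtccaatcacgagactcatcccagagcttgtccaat
Isca2 held 2 GATA matches, beginning 228 and 101 bases before the start, and 3 CACC matches, of which the last 2 overlap. These positions count from the annotated start, and the 210 bases printed for Isca2 end short of it. Glrx5 and Isca1 held none of either motif in this window. Lyrm4, not printed, held 2 CACC matches and no GATA match, and Nfs1 held neither. None of these 5 windows held the NF-E2 core (TGANTCA). Over 32851 promoter windows of 250 bases, 16.6% held a GATA match, 45.9% a CACC match and 6.75% the NF-E2 core. A match describes letters and is not a binding site.

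In wild-type cells of classes B to D the late and transfer genes were near-ubiquitous, while the sulfur donor and the scaffold were seen in a minority of cells. Isca2 was detected in 39 of 42 cells (92.9%, 95% exact binomial interval 80.5 to 98.5), Glrx5 in 40 (95.2%, 83.8 to 99.4) and Isca1 in 37 (88.1%, 74.4 to 96.0). Lyrm4 was detected in 30 (71.4%, 55.4 to 84.3), Nfs1 in 13 (31.0%, 17.6 to 47.1) and Iscu in 9 (21.4%, 10.3 to 36.8). These intervals cover counting error only. The mean log2 levels ran from Isca2 (5.98 ± 2.38, SD over 42 cells) and Glrx5 (5.19 ± 1.93) through Lyrm4 (3.66 ± 2.46) and Isca1 (3.55 ± 1.77) to Nfs1 (1.41 ± 2.29) and Iscu (1.07 ± 2.17). Each gene and the next in this order differed by less than the smaller of their SDs, except Isca1 and Nfs1, whose gap was 2.14. RPKM divides by transcript length, so these levels can be set side by side. The table holds no protein, and a low RNA level of Iscu or Nfs1 says nothing of the protein left in the cell.

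**Figure D1:**
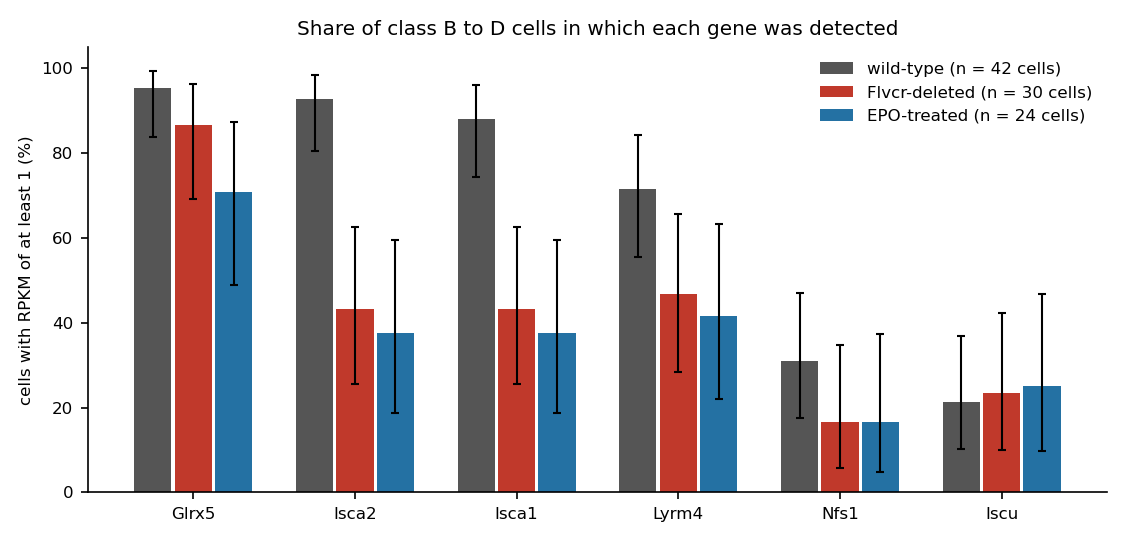
Share of class B to D cells with an RPKM of at least 1 (y axis, percent) for each member (x axis) in wild-type, Flvcr-deleted and EPO-treated cells; whiskers are 95% exact binomial intervals. Isca2 and Isca1 stood at 92.9% and 88.1% in wild-type cells, 43.3% for both in Flvcr-deleted cells and 37.5% for both in EPO-treated cells.

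Isca2, a late-acting assembly factor, had a lower mean log2 level in both other groups than in wild-type cells of classes B to D, and by this measure the largest differences from wild type of the 6 genes. Its RPKM ran from 0 to 498 in wild-type cells, with a median of 89.7. In Flvcr-deleted cells it ran from 0 to 529 with a median of 0, and in EPO-treated cells from 0 to 1084, also with a median of 0. The ranges overlap fully, and what differs is how many cells are at or near 0. Of 30 Flvcr-deleted cells 13 had Isca2 (43.3%, 25.5 to 62.6), as did 9 of 24 EPO-treated cells (37.5%, 18.8 to 59.4). The intervals count cells of 1 sample a group and do not test a difference between groups. The median number of genes detected in these classes also differed: 2199 in wild-type, 1196.5 in Flvcr-deleted and 1385 in EPO-treated cells. Where Isca2 was detected its level was much alike: 6.44 ± 1.75 in wild-type, 5.73 ± 2.28 in Flvcr-deleted and 6.71 ± 1.91 in EPO-treated cells on the log2 scale.

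The difference of class means, with classes B to D weighted alike, was -3.71 for Isca2 in Flvcr-deleted minus wild-type cells. It was -3.41 in class B, -4.70 in class C and -3.02 in class D. Most genes were also lower: the median of the 2540 genes with a mean log2 level of at least 1 was -1.08, so Isca2 stood -2.64 from the median gene, with 2.01% of those genes below it. In EPO-treated minus wild-type cells the difference was -3.59 against a median gene of -0.99, with 0.630% of genes below it. Both comparisons use the same wild-type cells. The size rests on the log scale, which weighs cells at 0: by the log2 ratio of mean RPKM, Isca2 was -1.51 in Flvcr-deleted cells and -0.90 in EPO-treated cells, where the call was lost, against median genes of -0.75 and -0.40. By that ratio Nfs1 (-2.38) in Flvcr-deleted and Isca1 (-1.64) in EPO-treated cells were further from wild type than Isca2. Between Flvcr-deleted and EPO-treated cells the Isca2 difference was -0.12, an average of unlike classes: 1.33 in class B, -2.84 in class C and 1.14 in class D. In class C Isca2 was seen in 1 of 9 Flvcr-deleted and 5 of 9 EPO-treated cells.

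Isca1, the partner of ISCA2, had a lower mean log2 level in the same groups, by a smaller amount over all cells of classes B to D. Its RPKM ran from 0 to 68.2 in wild-type cells (median 15.7), from 0 to 73.9 in Flvcr-deleted cells (median 0) and from 0 to 38.7 in EPO-treated cells (median 0). Of 30 Flvcr-deleted cells 13 had Isca1 (43.3%), as did 9 of 24 EPO-treated cells (37.5%), the same counts as Isca2. They were not the same cells: both genes were detected together in 6 Flvcr-deleted and 5 EPO-treated cells, against 34 of 42 wild-type cells. Each gene alone was also seen in a smaller share of cells in those groups, so the joint counts do not by themselves show less co-detection. The difference was -1.65 in Flvcr-deleted minus wild-type cells and -2.27 in EPO-treated minus wild-type cells. Relative to the median gene these are -0.57 and -1.28. By the log2 ratio of mean RPKM the Isca1 differences were -0.59 and -1.64, against median genes of -0.75 and -0.40, and the first lost its call. Within Flvcr-deleted cells Isca1 was detected in 4 of 16 cells of class B, 6 of 9 of class C and 3 of 5 of class D. Those of class B were cells 13, 16 and 40, named above for their low globin shares, and cell 44. The Isca1 class D minus class B difference was 1.52 in Flvcr-deleted cells, 0.07 in wild-type cells and -0.45 in EPO-treated cells. The median gene moved by -0.43, -0.90 and -1.36 in the same groups.

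**Figure D2:**
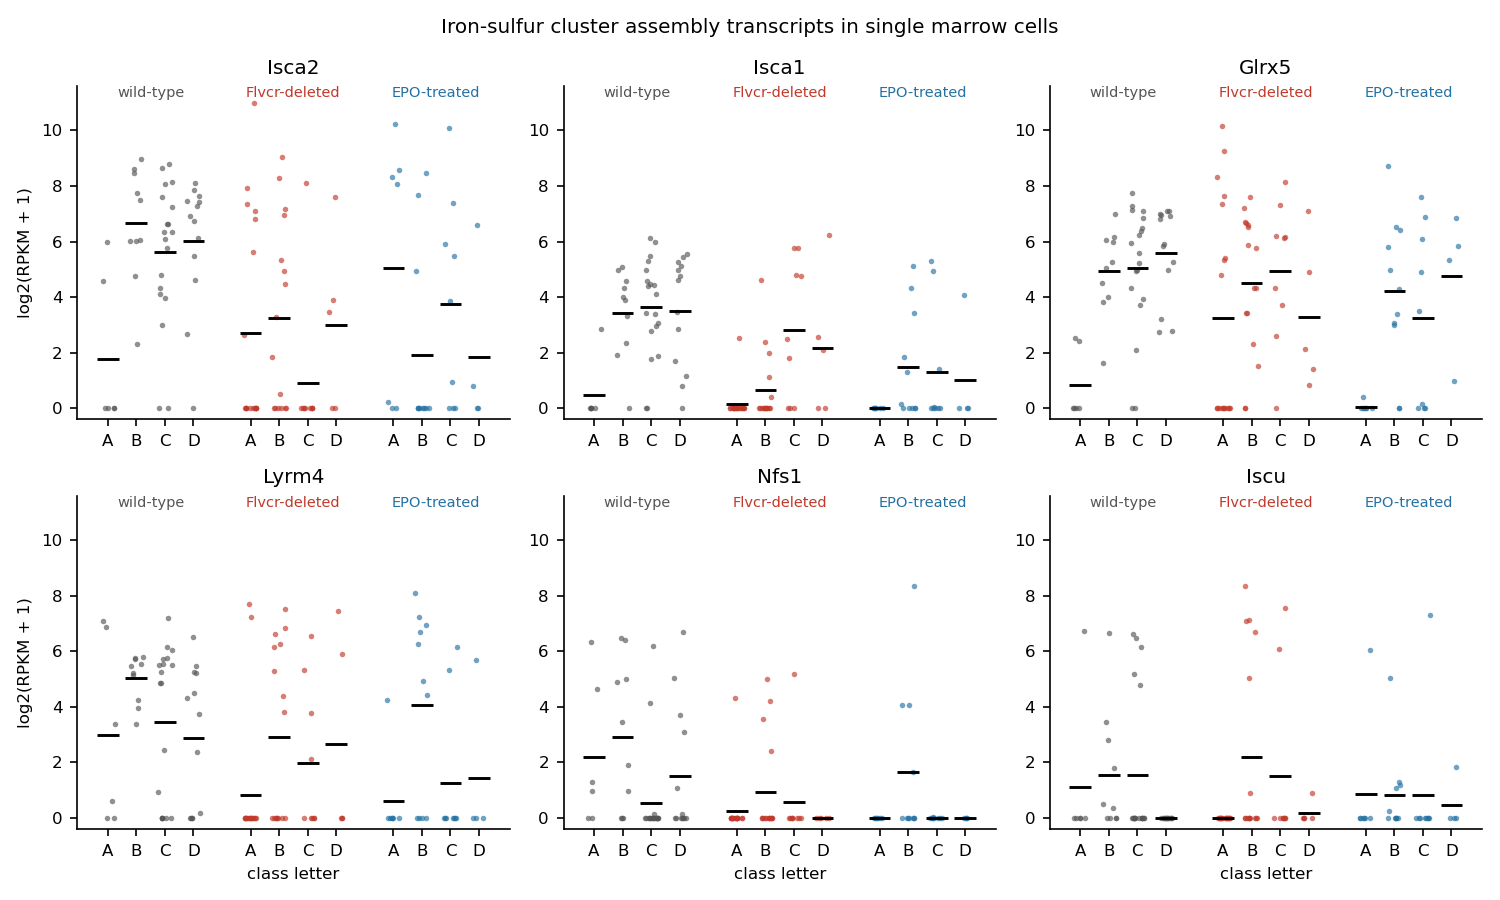
Level of each member in every cell, as log2(RPKM + 1) on the y axis, by class letter within wild-type, Flvcr-deleted and EPO-treated cells on the x axis; points are cells, shifted sideways for clarity, and bars are class means. Isca2 and Isca1 have many cells at 0 in classes B to D of the Flvcr-deleted and EPO-treated groups, whereas Glrx5 has few in the Flvcr-deleted group.

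Glrx5, the cluster carrier, stayed widely detected. It was found in 26 of 30 Flvcr-deleted cells (86.7%, 69.3 to 96.2) and 17 of 24 EPO-treated cells (70.8%, 48.9 to 87.4). Its RPKM ran from 0 to 216 in wild-type cells (median 51.5), from 0 to 284 in Flvcr-deleted cells (median 24.1) and from 0 to 424 in EPO-treated cells (median 23.8). The differences from wild type were -0.94 in Flvcr-deleted and -1.13 in EPO-treated cells, close to the median gene in both. The Flvcr-deleted difference was not even over classes: -0.42 in class B, -0.10 in class C and -2.31 in class D, the last from 5 cells. From class B to class D Glrx5 was 0.64 higher in wild-type and 0.55 higher in EPO-treated cells, and 1.24 lower (-1.24) in Flvcr-deleted cells. Under quantile normalization the Glrx5 difference in classes B to D became 0.43 for Flvcr-deleted and 0.02 for EPO-treated cells, so its direction against wild type depended on the scaling.

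Within single cells the balance of Isca2 and Glrx5 can be read without scaling between cells. Isca2 had the higher RPKM of the pair in 29 of 42 wild-type cells (69.0%, 52.9 to 82.4), 11 of 30 Flvcr-deleted cells (36.7%, 19.9 to 56.1) and 8 of 24 EPO-treated cells (33.3%, 15.6 to 55.3). In cells with 1000 to 2000 detected genes these counts were 8 of 18 (44.4%), 5 of 12 (41.7%) and 4 of 12 (33.3%). A shift of balance of that size was thus not seen in this range of detection. All 13 Flvcr-deleted cells with Isca2 also had Glrx5, and another 13 had Glrx5 alone. Among EPO-treated cells 6 had both, 11 had Glrx5 alone and 3 had Isca2 alone. Glrx5 had the highest mean level of the 6 genes in Flvcr-deleted (4.44 ± 2.52) and EPO-treated cells (3.93 ± 2.84). The next genes were Lyrm4 in the former and Isca2 in the latter, at gaps of 1.84 and 1.34 that are smaller than the SDs.

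Lyrm4, the stabilising partner of the desulfurase, was seen in 14 of 30 Flvcr-deleted cells (46.7%, 28.3 to 65.7) and 10 of 24 EPO-treated cells (41.7%, 22.1 to 63.4), against 30 of 42 wild-type cells. Its median RPKM was 28.0 in wild-type cells and 0 in both other groups, and the highest values were 146, 184 and 275 in wild-type, Flvcr-deleted and EPO-treated cells. The differences were -1.26 and -1.54, or -0.19 and -0.55 from the median gene. In wild-type cells Lyrm4 was higher early than late: all 10 class B cells had it, at 5.03 ± 0.85, against 8 of 13 class D cells. The median number of detected genes also fell there, from 3033.5 in class B to 1891 in class D. The class D minus class B difference of Lyrm4 was -2.14 in wild-type, -2.63 in EPO-treated and -0.26 in Flvcr-deleted cells. The median gene moved by -0.90, -1.36 and -0.43 in the same groups. On a linear scale Lyrm4 did not keep its direction: the log2 ratio of mean RPKM in classes B to D was 0.19 for Flvcr-deleted and 0.10 for EPO-treated against wild-type cells, with fewer cells that had it and a higher mean log2 level in those cells (5.58 and 6.18 against 5.08).

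Nfs1, the sulfur donor, was seen in 5 of 30 Flvcr-deleted cells (16.7%, 5.64 to 34.7) and 4 of 24 EPO-treated cells (16.7%, 4.74 to 37.4). Its median RPKM was 0 in all 3 groups, with highest values of 102 in wild-type, 35.3 in Flvcr-deleted and 329 in EPO-treated cells. In wild-type cells it was found in 6 of 10 cells of class B, 2 of 19 of class C and 5 of 13 of class D. In EPO-treated cells all 4 Nfs1-positive cells of classes B to D were in class B. The differences from wild type were -1.15 and -1.11, near the median gene. By the log2 ratio of mean RPKM they were -2.38 and -0.32, against median genes of -0.75 and -0.40, so the first is not near the median gene on that scale. The annotation places Romo1 over part of Nfs1, and whether the counting used strand was not given in the sources used here, so reads of the pair may be mixed.

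Iscu, the scaffold itself, had similar detected shares in the 3 groups. It was detected in 9 of 42 wild-type, 7 of 30 Flvcr-deleted (23.3%, 9.93 to 42.3) and 6 of 24 EPO-treated cells (25.0%, 9.77 to 46.7) of classes B to D, with a median RPKM of 0 in each. The highest values were 101, 323 and 159. The differences from wild type were 0.27 in Flvcr-deleted and -0.34 in EPO-treated cells, or 1.34 and 0.65 above the median gene. The wild-type class means were 1.56, 1.54 and 0 in classes B, C and D. Iscu thus had little room to be lower than wild type, and its place above the median gene partly reflects that floor. Flvcr-deleted minus EPO-treated cells gave 0.61, and by the log2 ratio of mean RPKM the difference of Flvcr-deleted from wild-type cells was 1.37. These intervals are wide, cover counting error only and do not test a difference between groups. In class D Iscu was detected in 1 of 4 EPO-treated cells, in 0 of 13 wild-type class D cells (allowing up to 24.7%), and in 0 of 5 Flvcr-deleted class D cells (allowing up to 52.2%). In class B it was detected in 4 of 10 wild-type and 5 of 16 Flvcr-deleted cells.

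By the rule used for a call, a class-weighted difference of at least 1 on the log2 scale with the same sign in every class, 2 of the 6 members (Isca1 and Lyrm4) were lower in Flvcr-deleted than wild-type cells over classes A to D. In the same comparison 44.6% of the 2540 kept genes were called lower and 0.669% higher. Over classes B to D 3 members were called lower (Isca2, Isca1 and Lyrm4), where 48.3% of genes were and 3.74% were higher. In EPO-treated minus wild-type cells 4 members were lower over classes A to D (Isca1, Glrx5, Nfs1 and Lyrm4), where 35.2% of genes were lower and 0.236% higher. Without class A there were 5, all but Iscu, where 42.0% were lower and 0.512% higher. Iscu was at 0 in every wild-type class D cell, so this rule could not call it lower than wild type. Both Iscu and Nfs1 fell below the filter for kept genes, with mean log2 levels of 0.99 and 0.91 over all cells. The shares of genes are over kept genes only. Among the 4 kept members, 2 were called lower in Flvcr-deleted minus wild-type cells over classes A to D and 3 over classes B to D. In EPO-treated minus wild-type cells 3 of these 4 were called lower over classes A to D and 4 over classes B to D. Between Flvcr-deleted and EPO-treated cells no member was called over classes A to D, where 2.44% of genes were higher and 6.26% lower, nor over classes B to D, where 7.76% were higher and 8.86% lower. With 4 kept members such counts are coarse, and they were not tested against the shares of all genes.

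**Figure D3:**
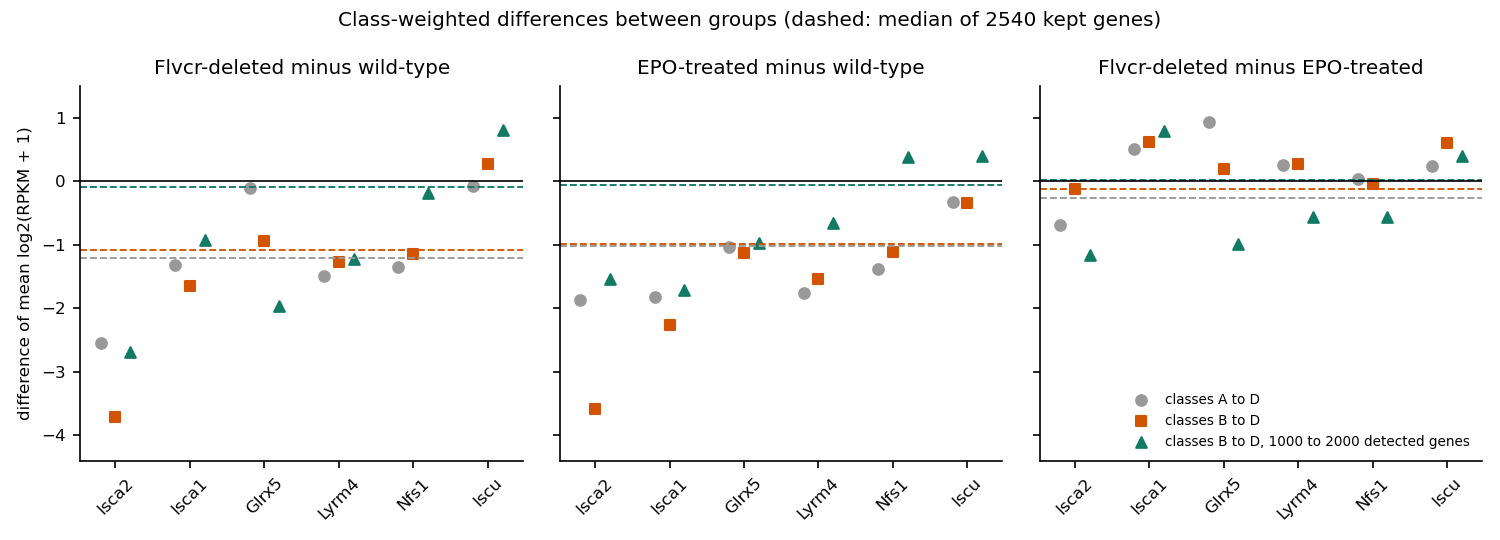
Class-weighted difference of mean log2(RPKM + 1) (y axis) of each member (x axis) in the 3 comparisons, over classes A to D, classes B to D, and those cells of classes B to D that had 1000 to 2000 detected genes; dashed lines give the median of 2540 kept genes in the same cells. Isca2 lies below the median gene in all 3 sets of cells against wild type, at -2.70 and -1.53 in the cells with 1000 to 2000 detected genes.

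The number of genes detected per cell moved with the group, so the members were also read in cells from a narrower range of detection. When classes B to D were limited to cells having 1000 to 2000 detected genes (18 wild-type, 12 Flvcr-deleted and 12 EPO-treated cells) the median gene differed by -0.09 and -0.06 from wild type. Isca2 was then -2.70 in Flvcr-deleted and -1.53 in EPO-treated cells, and was detected in 15 of 18 wild-type (83.3%, 58.6 to 96.4), 5 of 12 Flvcr-deleted (41.7%, 15.2 to 72.3) and 6 of 12 EPO-treated cells (50.0%, 21.1 to 78.9). The Isca2 difference in EPO-treated cells no longer had the same sign in every class. Isca1 was -0.92 and -1.71, Lyrm4 -1.23 and -0.66, Nfs1 -0.18 and 0.38, and Iscu 0.81 and 0.40. In Flvcr-deleted cells Isca1 and Lyrm4 lost their lower call here, Isca2 kept it and Glrx5 gained one. In EPO-treated cells Isca1 was the 1 member still called lower. Glrx5 was -1.96 in Flvcr-deleted cells, further below wild type than over all class B to D cells, and -0.98 in EPO-treated cells. Its share stayed high there, at 10 of 12 and 9 of 12 against 16 of 18 wild-type cells, and its level in the cells that had it was 4.38 ± 2.39 in Flvcr-deleted and 6.25 ± 1.12 in wild-type cells. Class B holds 2 wild-type cells and class D 2 EPO-treated cells in this set, so these differences rest on few cells. The range narrows the gap in detection and does not remove it: wild-type cells inside it still tended to have more detected genes. The class mix also differed. Classes B, C and D held 2, 8 and 8 wild-type cells, 4, 4 and 4 Flvcr-deleted cells, and 5, 5 and 2 EPO-treated cells.

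**Figure D4:**
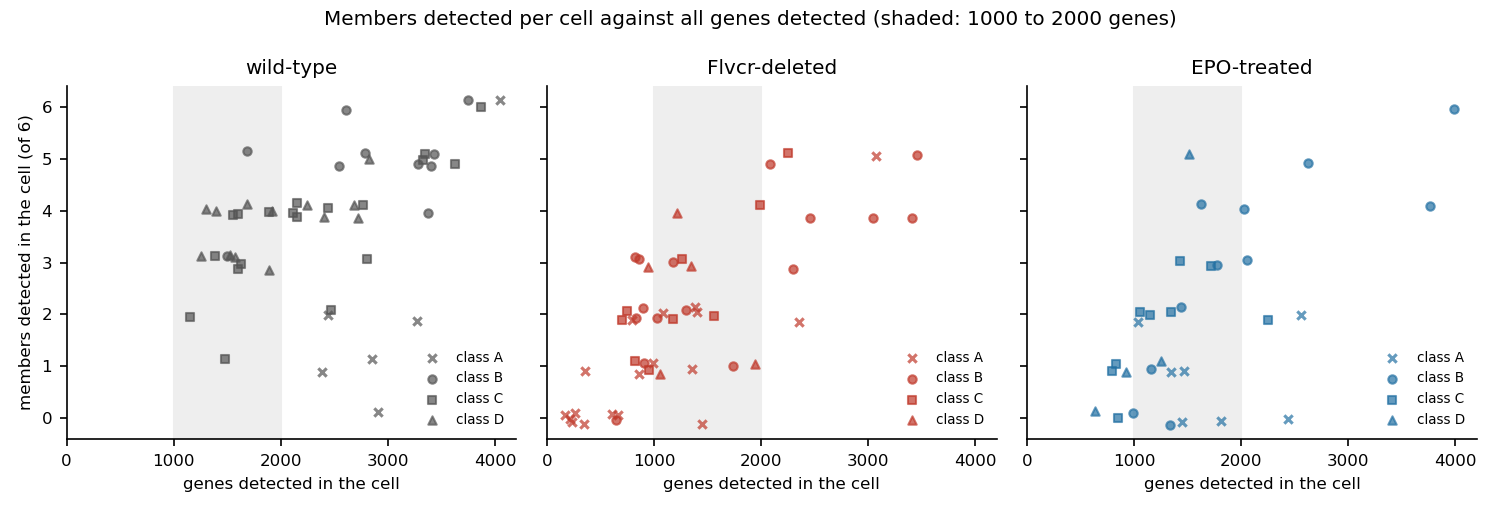
Number of the 6 members detected in a cell (y axis, shifted slightly for clarity) against the number of all genes detected in that cell (x axis), by class letter, in wild-type, Flvcr-deleted and EPO-treated cells. Inside the shaded range of 1000 to 2000 genes, class B to D cells held a mean of 3.33 members in wild-type and 2.33 in both other groups.

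Wild-type cells also held more of the members per cell. Wild-type cells of classes B to D held 4.00 ± 1.08 of the 6 members (SD, 42 cells), Flvcr-deleted cells 2.60 ± 1.35 (30 cells) and EPO-treated cells 2.29 ± 1.73 (24 cells). At least 4 members were found in 30 of 42 wild-type, 8 of 30 Flvcr-deleted and 6 of 24 EPO-treated cells. None or 1 was found in 1, 7 and 9 cells. All 6 were found together in 3 wild-type cells and 1 EPO-treated cell of these classes. In matched cells the means were 3.33 ± 0.91, 2.33 ± 1.07 and 2.33 ± 1.37. Across cells of classes B to D, Lyrm4 levels went with the number of genes detected (Spearman's rho 0.45 over 30 Flvcr-deleted, 0.39 over 42 wild-type and 0.72 over 21 EPO-treated cells of 1 code prefix), and so did Nfs1 and Iscu. For Isca1 rho was 0.23, -0.08 and 0.59, and for Isca2 0.27, 0.20 and 0.38. For Glrx5 rho was -0.04, -0.19 and 0.17. The cells share a library preparation, and these values are a description.

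Class A, in which some cells carried markers of other blood cells, gave other values. Glrx5 was at an RPKM under 1 in all 7 EPO-treated class A cells (a share up to 41.0% is allowed by that count), and was detected in 2 of 6 wild-type cells and 8 of 18 Flvcr-deleted cells. Isca2 was detected in 4 of the 7 EPO-treated class A cells, at RPKM values from 265 to 1200, in 2 of 6 wild-type and in 7 of 18 Flvcr-deleted cells, where it reached 2026. The class A differences of Isca2 from wild type were therefore 0.93 in Flvcr-deleted and 3.30 in EPO-treated cells, opposite in sign to classes B to D. Over classes A to D the Isca2 differences were -2.55 and -1.87. Of the 18 Flvcr-deleted class A cells, 9 carry a suffix d in their class label and 9 a suffix a. Glrx5 was detected in 1 of 9 with suffix d and 7 of 9 with suffix a, and Isca2 in 1 of 9 and 6 of 9. The suffix d cells had 169 to 864 detected genes and an estimated depth of up to 0.456 M reads, against 796 to 3069 genes and at least 0.715 M reads in suffix a cells. In the shallowest Flvcr-deleted cell 1 read of Isca2 was worth an RPKM of 19.7, so a 0 in such a cell leaves room for a level that would be read as detected elsewhere. At the median depth 1 read of Isca2 was worth 0.423 in Flvcr-deleted and 0.283 in wild-type cells, and 1 read of Glrx5 0.128 and 0.0856. The read depth of the EPO-treated cells is unknown, and their values carry at most 2 decimals. The part of depth in the group differences was not tested beyond the matched cells.

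The rest of the pathway was read from lists of partners. Among 15 mitochondrial partners 6 were kept, with median differences from wild type over classes B to D of -0.69 in Flvcr-deleted and -1.04 in EPO-treated cells. Nfu1, which delivers [4Fe-4S] clusters, was -0.74 and -1.13, and Slc25a37, mitoferrin-1, the iron importer of erythroblast mitochondria, was -0.99 and -0.11.

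Of 11 genes of cytosolic assembly 4 were kept, and 2 of them were called lower in each comparison with wild type over classes B to D, beside 48.3% and 42.0% of all kept genes. These were Nubp2, a scaffold subunit, at -2.27 and -3.19, and Fam96a, a targeting factor, at -1.33 and -2.80. Fam96b, the related targeting factor, was 0.72 and -0.71, and it was the 1 gene of the list called higher in Flvcr-deleted than EPO-treated cells, by 1.43. Bola3, a mitochondrial partner of GLRX5 and NFU1, was 1 of 2 mitochondrial partners called higher in that comparison, by 1.39. Of all kept genes 7.76% were called higher there. Bola3 was seen in 24 of 30 Flvcr-deleted and 17 of 24 EPO-treated cells.

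**Figure D5:**
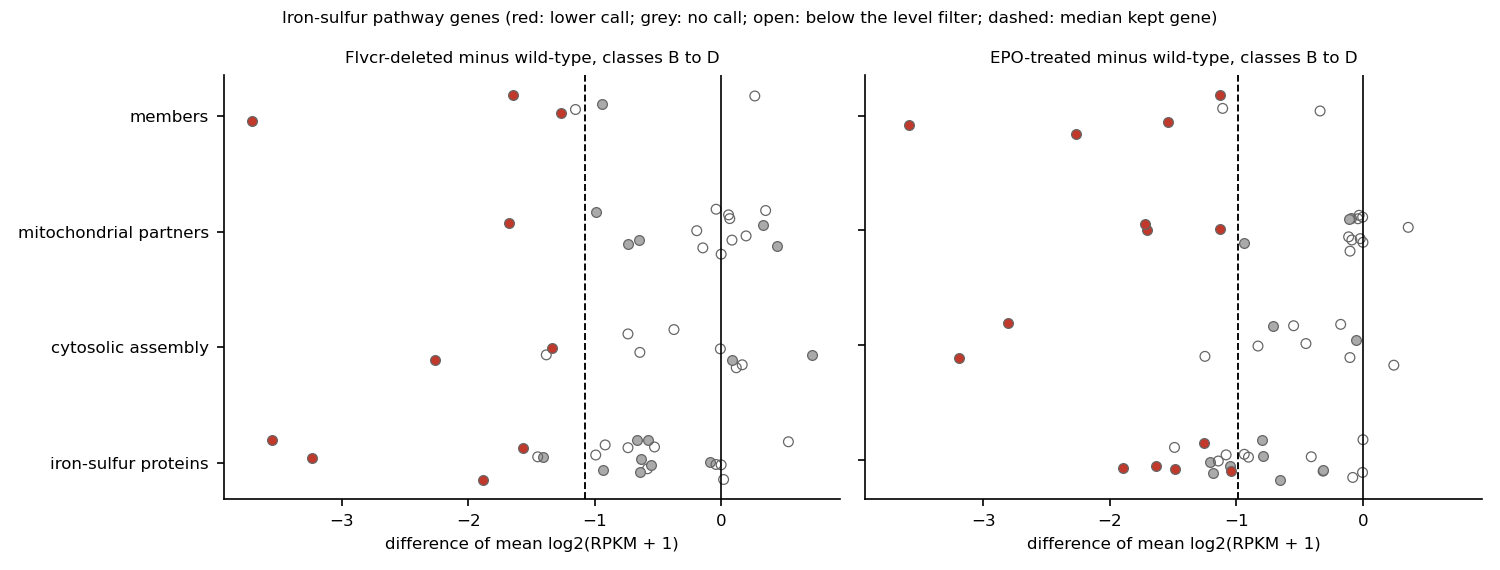
Class-weighted difference of mean log2(RPKM + 1) from wild type (x axis) over classes B to D for the genes of each list (y axis; vertical scatter has no meaning); filled red points were called lower, grey points were not called, open points are below the level filter, and the dashed line is the median kept gene. No kept gene of these lists was called higher, and Isca2 is the leftmost member at -3.71 and -3.59.

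Of 22 iron-sulfur proteins 12 were kept, of which 4 were called lower in Flvcr-deleted and 5 in EPO-treated cells over classes B to D, beside 48.3% and 42.0% of all kept genes, with medians of -0.80 and -1.12. Those medians lie near the median genes of -1.08 and -0.99. Fech, ferrochelatase, which puts iron into heme, stood lowest at -3.55 in Flvcr-deleted cells and was -1.90 in EPO-treated cells. It was detected in 40 of 42 wild-type, 14 of 30 Flvcr-deleted and 17 of 24 EPO-treated cells. Ndufv1 and Ndufs1, cluster-bearing subunits of respiratory complex I, were -3.24 and -1.88 in Flvcr-deleted cells and -1.25 and -1.21 in EPO-treated cells. Aco1 was not kept and was -0.74 and -0.32. Alas2, the first enzyme of erythroid heme synthesis, whose translation iron regulatory proteins control, was -2.23 and -1.49, and Tfrc, the transferrin receptor, -1.17 and -0.26.

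The genes most like each member were found over the 12 means of group and class among kept genes, by Pearson's r. For Isca1 they were Ackr1 (0.95), Nxpe2 (0.95) and Carhsp1 (0.93), and for Isca2 Gtpbp1 (0.89), Pfkm (0.89) and Sun1 (0.87). For Glrx5 they were Rhag (0.93), 1190002F15Rik (0.92) and Yipf4 (0.92), and for Lyrm4 Nsmce1 (0.94), Prim2 (0.93) and Psmb5 (0.92). Among the members the closest pair with a kept gene was Lyrm4 and Nfs1 (0.81), then Isca1 and Glrx5 (0.71), while Isca2 and Glrx5 gave 0.15. The 12 means share wild-type, Flvcr-deleted and EPO-treated libraries and their depth, and the values are a description.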

How the data were processed

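The deposited table gives RPKM values for 34898 transcript rows, which the authors made from reads mapped to mm9 with TopHat2 2.0.9, as the submitters' processing notes list. The sources used here do not give the counting tool, strand setting or filters. Columns were matched to cells by their labelled codes, and 4 columns that match no sample were not used. For each of 24320 symbols the row with the highest mean was taken. Values were analysed as log2(RPKM + 1) with Python 3.11.15, numpy 2.4.6, pandas 2.3.3 and scipy 1.17.1, and 2540 genes with a mean of at least 1 were kept. A group difference is the mean of the class differences, classes weighted alike. A call needs an absolute difference reaching 1 and every class difference on that side of 0. For the log2 ratio of mean RPKM, size alone made a call. The script was tested on simulated data. Intervals are 95% exact binomial (Clopper-Pearson) and cover counting error only. In quantile normalization zeros were held at 0. No doublet caller was run; chambers were photographed, per the labels' protocols. Read depth was estimated from the smallest RPKM steps in Flvcr-deleted and wild-type cells. Beside the members the text names, of each partner list, the 3 kept genes with the largest difference in size between Flvcr-deleted and wild-type cells, and Aco1, Fech, Alas2 and Tfrc, leaving out items that are not reported here; Bola3 was chosen after its values were seen. The members and lists were chosen with earlier results of these data known. Alternatives changed the pseudocount, filter, class weighting, scaling, cells used and detection threshold; those for classes B to D alone, and the log2 ratio of mean RPKM, were chosen after seeing the data.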

Additional observations from a re-analysis of the deposited data

How the results depend on the processing

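With 1 sample a group no test could be run, and depth limits every share of cells, since a 0 in a shallow cell does not show absence. No paired analysis was possible because the cell numbers in the labels name different cells and the results come from no test. Of 360 recomputed member differences 40 lost a call, 18 gained one with the sign kept, and 6 changed sign and were called before or after. The other 296 kept their call or lack of one, and 28 of these, none of them called, changed sign. Of 72 recomputed shares of cells 63 moved by less than their interval and 9 by more. The cause of each change below was not tested. With a pseudocount of 10 the members called lower over classes A to D went from 2 to 0 in Flvcr-deleted minus wild-type cells and from 4 to 0 in EPO-treated minus wild-type cells. Without class A they went from 3 to 1 and from 5 to 1, and with a pseudocount of 0.1 the first was 5. Quantile normalization left 1 member lower in Flvcr-deleted cells over either set of classes and 3 in EPO-treated cells over classes B to D, where Glrx5 reversed to 0.017. Cells with 1000 to 2000 detected genes left 2 members lower in Flvcr-deleted and 1 in EPO-treated cells, where Nfs1 reversed to 0.38. By the log2 ratio of mean RPKM 1 member was lower in Flvcr-deleted cells with all classes, and without class A 1 was higher and 2 lower (Isca2 and Nfs1), where Lyrm4 reversed to 0.19. Isca2 in EPO-treated minus wild-type cells with all classes went from -1.87 to 0.29 by this ratio. By the same ratio 1 member was lower in EPO-treated cells over either set of classes, with Lyrm4 reversed to 0.10 over classes B to D. Between Flvcr-deleted and EPO-treated cells that ratio gave 2 members higher and 1 lower over either set of classes, from 0 and 0. A call by this ratio rested on its size alone, not on the sign in each class. Isca1, called higher, had a class B mean RPKM of 2.02 in Flvcr-deleted and 6.05 in EPO-treated cells. For Nfs1, called lower, the EPO-treated class B mean of 33.0 included 1 cell at 329. Over classes A to D Nfs1 went from 0.03, which was not called, to -1.88. The median gene in Flvcr-deleted minus wild-type cells, with all classes, moved from -1.21 to -1.01 with equal non-globin sums and to -0.61 with quantile normalization.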
